A study of Mus musculus with 22 samples.

Results

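Son, Scaf4, Paxbp1, Urb1 and Donson are 5 genes of mouse chromosome 16 that lie in the segment carried in an extra copy by Ts1Cje mice, a model of Down syndrome. They were taken from the array by gene symbol (Paxbp1 is also known as Gcfc1 and Scaf4 as Sfrs15), and all 5 were measured, by 1 feature each, among 20239 named genes. By Entrez number Son is 20658, Scaf4 is 224432, Paxbp1 is 67367, Urb1 is 207932 and Donson is 60364. Along the segment, counted here from the gene after Sod1 to Zbtb21, they hold places 21, 1, 9, 5 and 22 of 73 measured genes, in the order Son, Scaf4, Paxbp1, Urb1, Donson.

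In Ts1Cje mice the distal end of chromosome 16 is present once more, attached to chromosome 12, so each gene of the segment has 3 copies in Ts1Cje and 2 in wild-type (WT) animals. The animals were 6 Ts1Cje females and 5 WT female littermates of 8 to 10 weeks, from Ts1Cje males backcrossed to C57Bl/6J females, and the cortex and the hippocampus of each were hybridised to an array of their own, 22 arrays from 11 animals. RNA was extracted with the NucleoSpin RNA L kit from cortex and with the RNA II kit from hippocampus, so that kit and region cannot be told apart. Values are log2 signals, and a difference of 1 is a 2-fold change. In bulk tissue fewer cells of a type and less RNA per cell cannot be told apart.

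The 5 genes act at different points of RNA and DNA metabolism. SON is a large serine- and arginine-rich protein of nuclear speckles that helps splice transcripts with weak splice sites. In human cells SCAF4 binds the tail of RNA polymerase II and, with its relative SCAF8, prevents transcripts from ending too early. PAXBP1 links the factors Pax3 and Pax7 to a histone methyltransferase in mouse muscle precursors and belongs to the GCFC family, some of whose members act in the spliceosome. Urb1 of budding yeast is a nucleolar protein needed to make the large ribosomal subunit. DONSON, known from human cells, is needed for the assembly of the replicative helicase and protects stalled forks.

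The 250 bases before the annotated start of 3 of the genes are shown, because together they include windows with and without a GC box and both ends of the CpG range. Son has CCAAT boxes and no GC box. Urb1 has GC boxes and the fewest CpG pairs of the 5, and Donson has GC boxes, an ETS motif and the most CpG pairs of the 5. Sequences are those of RefSeq on GRCm38.p6, written 5′ to 3′ on the gene's strand, and capitals mark motif matches on either strand. Son lies on the plus strand, with its window at chr16:91647574-91647823. Urb1 is on the minus strand at chr16:90810414-90810663, and Donson on the minus strand at chr16:91688729-91688978.
Son: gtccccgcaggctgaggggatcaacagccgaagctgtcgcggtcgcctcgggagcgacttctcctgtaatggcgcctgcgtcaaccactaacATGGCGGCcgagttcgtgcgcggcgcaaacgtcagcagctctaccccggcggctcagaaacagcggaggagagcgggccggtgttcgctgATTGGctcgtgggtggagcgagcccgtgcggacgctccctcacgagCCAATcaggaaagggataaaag
Urb1: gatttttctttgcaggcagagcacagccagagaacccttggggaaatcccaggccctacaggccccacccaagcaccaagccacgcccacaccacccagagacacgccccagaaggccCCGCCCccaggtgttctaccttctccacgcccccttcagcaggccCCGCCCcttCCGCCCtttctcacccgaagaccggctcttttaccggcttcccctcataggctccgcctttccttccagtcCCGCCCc
Donson: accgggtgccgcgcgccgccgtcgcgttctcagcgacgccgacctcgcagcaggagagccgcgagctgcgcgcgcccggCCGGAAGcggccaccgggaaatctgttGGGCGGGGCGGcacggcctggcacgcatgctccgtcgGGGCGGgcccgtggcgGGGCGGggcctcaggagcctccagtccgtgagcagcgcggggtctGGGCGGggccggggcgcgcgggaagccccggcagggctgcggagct

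Son held CCAAT (reverse complement ATTGG) starting 22 and 68 bases before the start, and the YY1 motif ATGGCGGC. Urb1 held 4 copies of the GC box GGGCGG, all on the opposite strand, where they read CCGCCC. Donson held 5 copies of GGGCGG, of which the pair farthest from the start overlaps by a base, and the ETS motif CCGGAAG. Of the windows not shown, that of Scaf4 held 3 GC boxes and the E2F motif GGCGGGAA, and that of Paxbp1 held 1 GC box and the palindrome-like NRF1 motif CGCATGCGC, matched on both strands at overlapping bases. Over 27025 mouse promoters of the same length, searched on both strands, CCAAT occurred in 34.5%, GGGCGG in 32.9%, CCGGAAG in 7.05%, GGCGGGAA in 1.88%, CGCATGCGC in 1.49% and ATGGCGGC in 1.04%. The E box CACGTG (6.05% of promoters) and the TATA box TATAAA (13.0%) were in none of the 5 windows.

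All 5 windows were richer in G and C than the median promoter (52%), from 64.4% in Urb1 and 64.8% in Son to 67.2% in Paxbp1, 72.8% in Scaf4 and 79.6% in Donson. CpG pairs numbered 41 in Donson, 36 in Scaf4, 28 in Son, 27 in Paxbp1 and 11 in Urb1, where the median promoter had 6. These matches describe letters only, and no binding was measured.

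Ts1Cje animal 64 and WT animal 60 stood apart in both regions. Their signals were compressed, with an interquartile range of 2.64 (animal 64) and 2.51 (animal 60) in cortex, where the 9 other animals had 3.21 to 3.39. In hippocampus the values were 2.76 and 2.99, against 3.17 to 3.28 in the others. Their median correlation with the arrays of the same region was 0.976 and 0.967 in cortex (others 0.996 to 0.997) and 0.985 and 0.991 in hippocampus (others 0.995 to 0.996). The genotype and region comparisons are therefore given with and without these animals. Markers of the labelled regions were higher in their own region: 7 cortical projection neuron genes averaged 9.45 to 9.76 in the cortex arrays and 7.75 to 7.88 in the hippocampus arrays, and 7 hippocampal neuron genes 8.82 to 9.22 in hippocampus and 7.65 to 8.08 in cortex. The 6 striatal neuron genes were also higher in the cortex arrays, at 9.44 to 10.21, against 7.25 to 7.77 in hippocampus. Whether the cortex samples held striatal tissue was not tested. These signals are not centred, and whole arrays were brighter in cortex.

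In hippocampus Son, Scaf4 and Urb1 rose in Ts1Cje animals, by 1.28- to 1.36-fold on all animals, while Donson and Paxbp1 were higher by 1.36- and 1.26-fold without passing the test. In cortex all 5 were higher in Ts1Cje, by 1.19- to 1.42-fold, and none passed the test on all animals. With animals 60 and 64 left out all 5 rose in cortex. A gene was called where limma's moderated test gave a p under 0.05 after Benjamini-Hochberg adjustment across the 20239 genes.

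The counts stand against a low background. In cortex 0 of the 5 genes were called on all animals, where 0.00494% of all genes were called higher. When animals 60 and 64 were left out, 5 of 5 were called, against 0.148% of all genes. In hippocampus 3 of 5 were called on all animals (0.104% of all genes) and 3 of 5 without those animals (0.153%), but not the same 3: Scaf4 gave way to Donson. Leaving out any 1 of the 10 animals other than 64 left 0 of 5 called in hippocampus, in fits that called 1 to 8 of all genes. Leaving out 64 left 4 of 5, with 35 of all genes called.

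**Figure D1:**
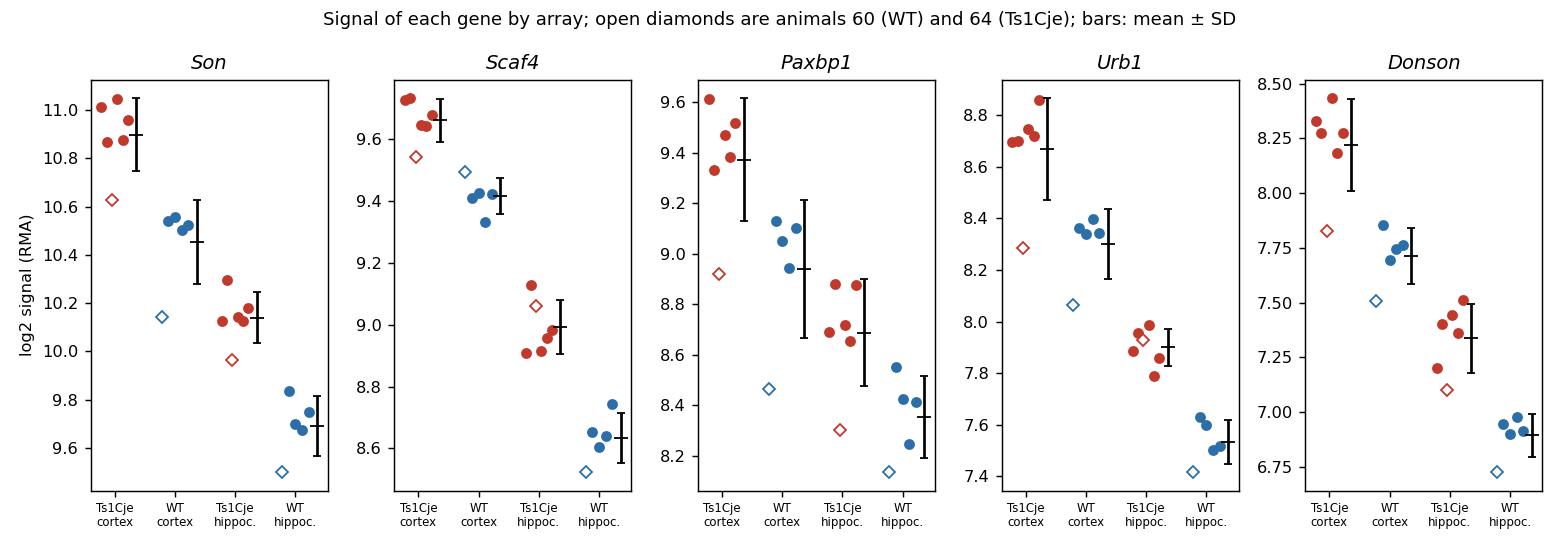
Log2 signal (vertical axis) of each gene in every array, by genotype and region; each point is 1 array, open diamonds are animals 64 (Ts1Cje) and 60 (WT), and bars give the group mean ± SD (n = 6 Ts1Cje, n = 5 WT). The filled Ts1Cje points lie above the filled WT points of the same region in all 5 genes, and the open diamonds are mostly the lowest of their group.

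Son, the speckle protein gene, had cortex signals of 10.63 at the lowest, 10.92 at the median and 11.05 at the highest in the 6 Ts1Cje animals, against 10.14, 10.54, 10.56, 10.51 and 10.52 in the 5 WT animals (in the order 60, 62, 65, 95 and 98, here and for the other genes). The groups did not overlap. The lowest Ts1Cje value was that of animal 64, and the lowest WT value, 10.14, stood well under the other 4 and was that of animal 60. The difference was 0.44 ± 0.10 (SE; 95% interval 0.23 to 0.66; adjusted p = 0.686). Without both animals it was 0.42 ± 0.05 (adjusted p = 0.00516), and the gap between the lowest Ts1Cje and the highest WT array was 0.31, against 0.07 on all animals.

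In hippocampus Son measured 9.96, 10.14 and 10.30 at the lowest, median and highest in Ts1Cje, against 9.50, 9.84, 9.70, 9.67 and 9.75 in WT. Every Ts1Cje array lay above every WT array. Son rose by 0.45 ± 0.07 (interval 0.30 to 0.60; adjusted p = 0.0444), and without animals 60 and 64 by 0.44 ± 0.05 (adjusted p = 0.00761).

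Scaf4, whose human product acts on transcript ends, measured 9.54, 9.66 and 9.73 at the lowest, median and highest in Ts1Cje cortex, against 9.49, 9.41, 9.43, 9.33 and 9.42 in WT cortex. The groups did not overlap, though animals 64 and 60 came within 0.05 of each other. In WT cortex animal 60 had the highest Scaf4 signal, whereas it had the lowest signal of the other 4 genes. The difference was 0.24 ± 0.06 (interval 0.12 to 0.37; adjusted p = 0.972), the smallest of the 5 in cortex, and Scaf4 rose by 0.29 ± 0.04 without animals 60 and 64 (adjusted p = 0.0199).

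In hippocampus Scaf4 measured 8.91, 8.97 and 9.13 in Ts1Cje, as lowest, median and highest, against 8.52, 8.65, 8.60, 8.64 and 8.74 in WT. The groups were apart by 0.17 with or without animals 60 and 64, since neither animal stood at the gap. Scaf4 rose by 0.36 ± 0.06 (interval 0.23 to 0.48; adjusted p = 0.0462). Without both animals the difference was 0.32 ± 0.05 and missed the threshold (adjusted p = 0.0671).

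Paxbp1, the Pax3 and Pax7 partner, had the widest spread. Cortex signals were 8.92, 9.43 and 9.61 at the lowest, median and highest in Ts1Cje, against 8.47, 9.13, 9.05, 8.94 and 9.10 in WT. The groups overlapped: 5 of 6 Ts1Cje arrays lay above every WT array, and that of animal 64 lay below 4 of the 5. The difference was 0.43 ± 0.15 (interval 0.11 to 0.75; adjusted p = 1.00). With animals 60 and 64 left out the groups were apart by 0.20 and Paxbp1 rose by 0.41 ± 0.06 (adjusted p = 0.0466).

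In hippocampus Paxbp1 measured 8.30, 8.70 and 8.88 in Ts1Cje, as lowest, median and highest, against 8.14, 8.55, 8.42, 8.25 and 8.41 in WT. The groups again overlapped through animal 64. The difference of 0.33 ± 0.11 did not pass the test (interval 0.10 to 0.57; adjusted p = 1.00), nor did that of 0.35 ± 0.07 without both animals (adjusted p = 0.181), when the groups were apart by 0.10.

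Urb1, the ribosome biogenesis gene, measured 8.28, 8.71 and 8.86 at the lowest, median and highest in Ts1Cje cortex, against 8.06, 8.36, 8.34, 8.40 and 8.34 in WT cortex. Animal 64 was the 1 of 6 Ts1Cje animals inside the WT range, and the 4 WT animals other than 60 lay between 8.34 and 8.40. The difference was 0.37 ± 0.10 (interval 0.14 to 0.59; adjusted p = 1.00). On the other 9 animals Urb1 rose by 0.38 ± 0.04 (adjusted p = 0.00549).

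In hippocampus Urb1 measured 7.79, 7.91 and 7.98 in Ts1Cje, as lowest, median and highest, against 7.42, 7.63, 7.60, 7.50 and 7.52 in WT. The groups were apart by 0.16 with or without animals 60 and 64. Urb1 rose by 0.37 ± 0.05 (interval 0.25 to 0.49; adjusted p = 0.0374), and without both animals by 0.33 ± 0.05 (adjusted p = 0.0375). With all 22 arrays in 1 fit and the animal as a replicate block, its call in hippocampus was lost (adjusted p = 0.285).

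Donson, the replication gene, measured 7.83, 8.27 and 8.43 at the lowest, median and highest in Ts1Cje cortex, against 7.51, 7.85, 7.69, 7.75 and 7.76 in WT cortex. The groups overlapped by 0.03, between Ts1Cje animal 64 and the highest WT animal. The difference was 0.51 ± 0.11 (interval 0.28 to 0.74; adjusted p = 0.553). On the other 9 animals Donson rose by 0.54 ± 0.06 (adjusted p = 0.00340), which was 1.45-fold.

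In hippocampus Donson measured 7.10, 7.38 and 7.51 in Ts1Cje, as lowest, median and highest, against 6.73, 6.95, 6.90, 6.98 and 6.91 in WT. Every Ts1Cje array was above every WT array. The difference of 0.44 ± 0.08 did not pass the test (interval 0.27 to 0.62; adjusted p = 0.0866), and without both animals Donson rose by 0.45 ± 0.06 (adjusted p = 0.0192).

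The genotypes were apart, with every Ts1Cje array above every WT array, in 2 of 5 genes in cortex (Son and Scaf4), where this held for 0.232% of all genes. In hippocampus they were apart in 4 of 5 (all but Paxbp1), against 0.38% of all genes. Leaving out animals 60 and 64, they were apart in 5 of 5 genes in both regions, against 1.36% of all genes in cortex and 1.5% in hippocampus. This was not particular to the 5 genes. Of the 68 other measured genes of the segment, 22 were apart in this direction in cortex and 31 in hippocampus on all animals. Without animals 60 and 64, 40 and 41 of the 68 were.

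**Figure D2:**
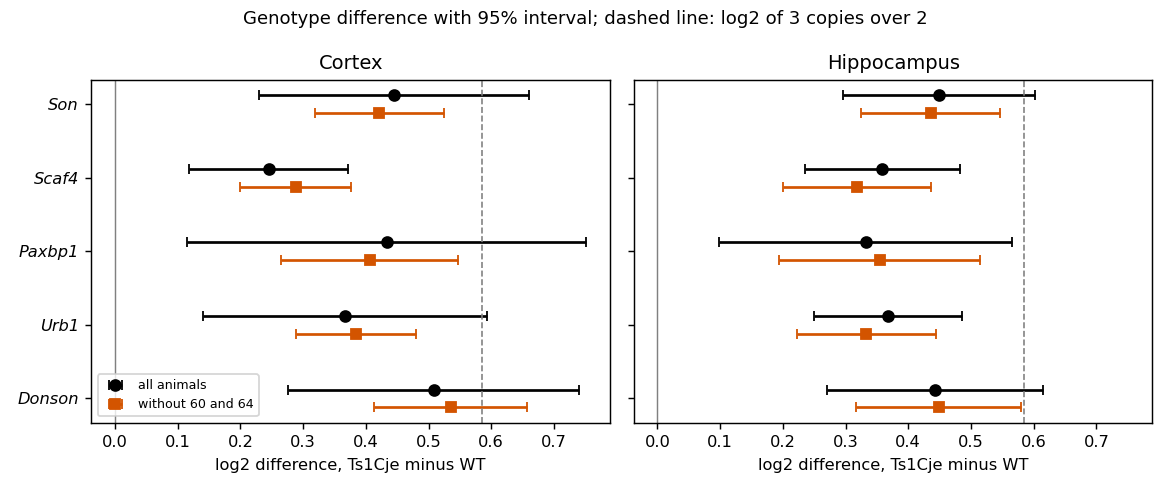
Log2 difference, Ts1Cje minus WT, of each gene in cortex (left) and hippocampus (right) with its 95% interval, on all animals (circles) and without animals 60 and 64 (squares); the dashed line is the log2 ratio of 3 copies to 2, 0.58. All intervals lie above 0, and those in cortex are narrower without the 2 animals.

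A ratio of 3 copies to 2 is 1.5, or 0.58 on the log2 scale. The 95% interval held this value in 4 of 5 genes in cortex (all but Scaf4) and in 2 of 5 in hippocampus (Son and Donson) on all animals. On the 9 other animals it held it in 1 of 5 in cortex (Donson) and in 0 of 5 in hippocampus, where the point estimates were 1.25- to 1.37-fold. All 20 of these intervals lay above 0. How closely array signal follows copy number was not tested, so an interval below 0.58 does not by itself show expression below gene dosage.

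When the cortex and hippocampus values of each animal were averaged, the differences were 0.48 ± 0.09 for Donson, 0.45 ± 0.08 for Son, 0.38 ± 0.12 for Paxbp1, 0.37 ± 0.06 for Urb1 and 0.30 ± 0.04 for Scaf4. Only Scaf4 passed the test on all animals (adjusted p = 0.0301), where 0.0544% of all genes were called higher. Scaf4 had the smallest difference and also the smallest error. When animals 60 and 64 were left out, 5 of 5 passed, against 0.232% of all genes, with adjusted p from 0.00016 for Son to 0.0131 for Paxbp1.

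The difference between genotypes was not shown to depend on the region. The Ts1Cje minus WT difference in hippocampus minus that in cortex was 0.11 for Scaf4 (95% interval -0.04 to 0.27) and -0.10 for Paxbp1 (-0.49 to 0.29). It was -0.07 for Donson (-0.34 to 0.21), 0.004 for Son (-0.25 to 0.26) and 0.001 for Urb1 (-0.24 to 0.24). These intervals come from a fit without the animal as a replicate block, though each animal gave an array of both regions. The correlation within an animal was 0.44, so they may be wider than paired intervals. In limma's test 0 of 5 were called and 0% of all genes, while 260 genes had an unadjusted p under 0.05 (912 with the animal as a replicate block). With the block 0 of 5 were called as well. On the 9 animals other than 60 and 64 the 5 values ran from -0.09 (Donson) to 0.03 (Scaf4), and again 0 of 5 were called. On all animals the intervals of Paxbp1 and Scaf4 were wide enough to hold a difference as large as the gene's genotype effect in cortex (0.43 and 0.24).

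Deposited signals of all 5 genes were highest in Ts1Cje cortex, then WT cortex, Ts1Cje hippocampus and WT hippocampus, but whole arrays were also brighter in cortex: array medians ran from 7.53 to 7.62 there and from 6.91 to 6.95 in hippocampus. With each array centred on its median, the order was Ts1Cje cortex, Ts1Cje hippocampus, WT cortex, WT hippocampus for Son, Scaf4, Urb1 and Donson, and Paxbp1 differed in having WT hippocampus above WT cortex. The step between the lower Ts1Cje group and the higher WT group was larger than the larger SD of both in 5 of 5 genes. The step between the Ts1Cje groups was so only in Donson, and that between the WT groups in Scaf4 and Donson. On the animals other than 60 and 64, Paxbp1 had the same order as the other 4 genes, and the middle step was again larger than the SD in 5 of 5. The step between the Ts1Cje groups was then so in Son, Urb1 and Donson, and that between the WT groups in all but Paxbp1.

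On centred arrays, taking both genotypes together, Donson was lower in hippocampus than in cortex by -0.22 ± 0.07 on the log2 scale (adjusted p = 0.0147) and Scaf4 by -0.10 ± 0.04 (adjusted p = 0.0452). Urb1 (-0.14, adjusted p = 0.0678), Son (-0.13, adjusted p = 0.114) and Paxbp1 (-0.003, adjusted p = 0.985) did not pass. These 2 of 5 calls stand beside 41.4% of all genes called in either direction, so such a difference was common. With the animal as a replicate block 4 of 5 passed, Son (adjusted p = 0.0204) and Urb1 (0.0165) being added, in a fit that called 54% of all genes. The same 4 passed without animals 60 and 64, where 65.5% of all genes did. Leaving out 1 animal gave 1 to 3 of 5, with 36.5% to 48.0% of all genes called.

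The 5 genes were set beside the 68 other measured genes of the segment. In cortex their median difference between Ts1Cje and WT was 0.43, against 0.31 in the other segment genes and -0.003 in all genes. In hippocampus the medians were 0.37, 0.27 and -0.01. The lower and upper quartiles of the 68 others were 0.02 and 0.47 in cortex and 0.11 and 0.38 in hippocampus. In both regions the median of the 5 lay inside them. The 68 were not sorted by signal, so genes with little signal in brain were not set apart. On the animals other than 60 and 64 the medians of the 5 and of the 68 were 0.41 and 0.29 in cortex and 0.35 and 0.31 in hippocampus. In cortex 52 of the 68 others were above 0 and in hippocampus 66, while the 5 were above 0 in both. Of the 68 others, 0 were called in cortex and 14 in hippocampus on all animals, and 22 and 23 without animals 60 and 64. Ranked by size among the 73, Donson stood 9th in both regions, Son 22nd in cortex and 6th in hippocampus, Paxbp1 25th and 30th, Urb1 35th and 21st, and Scaf4 43rd and 23rd. With animals 60 and 64 left out the ranks in cortex and hippocampus were 4 and 10 for Donson, 21 and 11 for Son, 26 and 27 for Paxbp1, 33 and 34 for Urb1, and 39 and 38 for Scaf4.

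**Figure D3:**
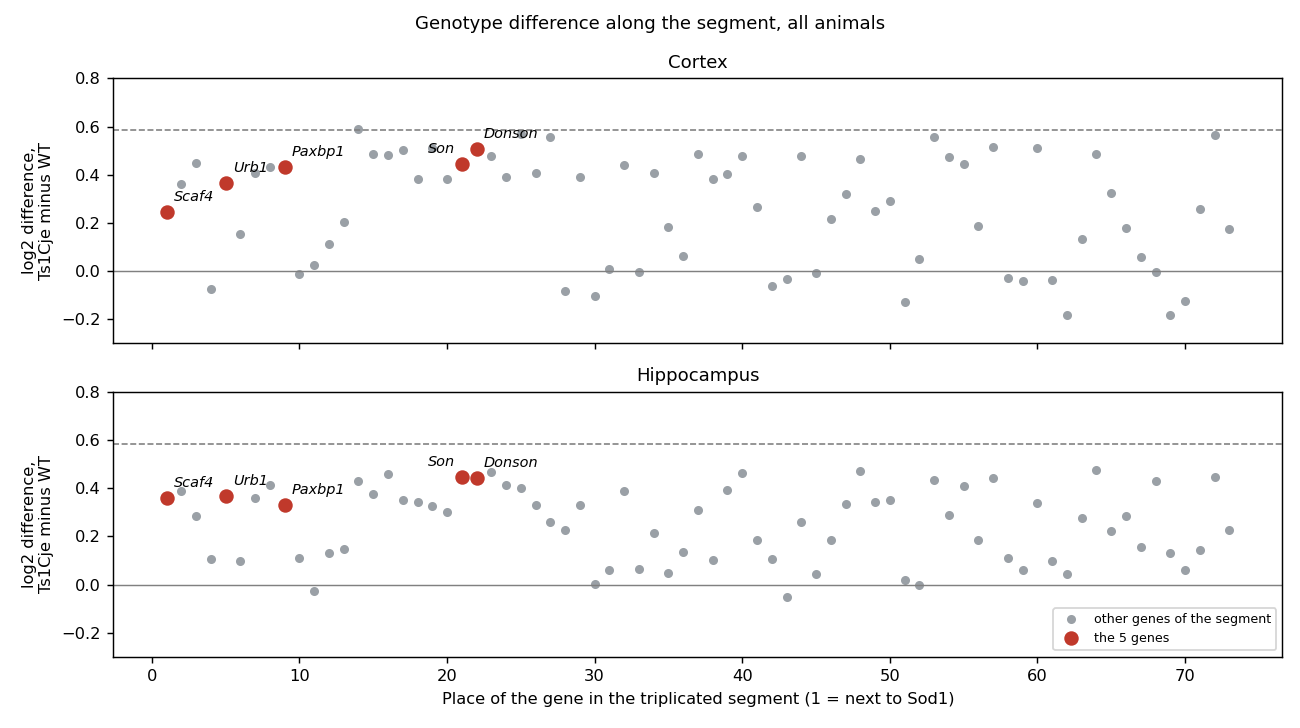
Log2 difference, Ts1Cje minus WT, of the 73 measured genes of the segment in their order along it (horizontal axis, place 1 next to Sod1), in cortex (top) and hippocampus (bottom), all animals; large points are the 5 genes and the dashed line is 0.58. The 5 genes lie between 0.24 and 0.51 in cortex and between 0.33 and 0.45 in hippocampus, among other segment genes that run from -0.18 to 0.59 in cortex and from -0.05 to 0.48 in hippocampus.

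Neighbouring genes did not all move alike, and their signal levels were not compared. Son and Donson adjoin, and their spans share bases on opposite strands, so that with the probes' strand not given in the sources used here their signals may not be separate. On either side of this pair, Gart, a purine synthesis enzyme, was higher by 0.38 in cortex (adjusted p = 0.188) and rose by 0.30 in hippocampus (adjusted p = 0.0374), and Cryzl1, a quinone reductase-like gene, was higher by 0.48 and 0.47 (adjusted p = 1.00 and 0.0512). Next to Paxbp1, the synaptic phosphatase gene Synj1 was higher by 0.43 in cortex (adjusted p = 0.0921) and rose by 0.41 in hippocampus (adjusted p = 0.0209), whereas 4932438H23Rik differed by -0.01 and 0.11. Next to Urb1, the melanocortin receptor accessory gene Mrap differed by -0.07 and 0.11 and Eva1c by 0.15 and 0.10, none of them called. With animals 60 and 64 left out Gart, Cryzl1 and Synj1 rose in both regions, with adjusted p from 0.00102 (Synj1, cortex) to 0.0195 (Gart, hippocampus), while 4932438H23Rik, Mrap and Eva1c were not called.

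Scaf4 is the first gene of the segment as counted here. The kinase gene Hunk, which follows it, was higher by 0.36 in cortex and 0.39 in hippocampus (adjusted p = 1.00 and 0.0668), and by 0.39 and 0.37 without animals 60 and 64 (adjusted p = 0.455 and 0.0581). Sod1, the superoxide dismutase gene on the other side and outside the count, was higher by 0.62 in cortex (adjusted p = 1.00) and rose by 0.74 in hippocampus (adjusted p = 0.0214). Both Sod1 differences exceeded those of all 5 genes. On the other 9 animals Sod1 rose by 0.70 in cortex (adjusted p = 0.000578) and 0.79 in hippocampus (adjusted p = 1.1e-05).

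Relatives of 3 of the genes lie outside the segment, in 2 copies in both genotypes. Scaf8, which acts with Scaf4, differed between Ts1Cje and WT by 0.03 in cortex (95% interval -0.26 to 0.32) and -0.004 in hippocampus (-0.12 to 0.11). Gcfc2, of the same family as Paxbp1, differed by -0.01 (-0.32 to 0.31) and -0.09 (-0.30 to 0.13). Urb2, a partner of Urb1 in yeast, differed by 0.15 (-0.04 to 0.33) and 0.02 (-0.14 to 0.18). None was called in either region, with or without animals 60 and 64.

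RNA signals of genes from the pathways in which the 5 genes act were compared in 6 lists of genes outside the segment. The relatives above were a list of their own. Each value is 1 signal per gene, so splicing, transcript ends, ribosome output and replication themselves were not measured. Of 198 genes sought 191 were measured. In every list 0 genes were called higher and 0 lower, in cortex and in hippocampus, with and without animals 60 and 64. At an unadjusted p under 0.05, 2 of 191 passed in cortex (1.05%, against 1.30% of all genes) and 2 in hippocampus (1.05%, against 3.71%). When animals 60 and 64 were left out 5 of 191 passed in each region (2.62%), against 5.97% of all genes in cortex and 8.37% in hippocampus. The median difference over the 191 was 0.02 in cortex and -0.02 in hippocampus, with or without those animals. On all animals 124 of the 191 lay above 0 in cortex, where 48.5% of all genes did, and 60 in hippocampus (46.3%). Leaving out animals 60 and 64, the counts were 115 (53.0% of all genes) and 72 (46.8%). The lean was thus upward in cortex and downward in hippocampus, was small in size and was not tested. The median of the hippocampus difference minus the cortex difference ran over the 6 lists from -0.077 (ribosome biogenesis) to -0.030 (transcripts needing SON), against -0.009 in all genes. Without animals 60 and 64 it ran from -0.050 to -0.022, against -0.014 in all genes. Over the 6 lists without animals 60 and 64, the medians ran from -0.03 to 0.03 in cortex and from -0.03 to -0.01 in hippocampus. The list medians and gene values that follow are on all animals.

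Among 43 splicing factors and spliceosome genes the median difference was 0.01 in cortex and -0.01 in hippocampus. The lowest p in cortex was that of U2af2, which recognises the polypyrimidine tract (-0.17 ± 0.07, adjusted p = 1.00), followed by Srsf12 (0.11) and Prpf6 (0.16). In hippocampus the first 3 were Srrm1 (-0.14), Sf3b2 (-0.05) and Rnps1 (0.07). Among 14 genes whose human transcripts are known to need SON for splicing, the medians were 0.03 and -0.01. Flna, which encodes the actin cross-linker filamin A, differed by -0.15 in cortex and -0.19 in hippocampus (adjusted p = 1.00 in both), Hdac6 by 0.11 and 0.09, Acy1 by 0.12 in cortex and Idh2 by -0.11 in hippocampus.

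Among 28 genes of polymerase tail binding, cleavage and polyadenylation, the medians were 0.03 in cortex and -0.02 in hippocampus. Cpsf1, a subunit of the cleavage complex, differed by -0.09 in cortex and -0.13 in hippocampus, Clp1 by 0.18 and Rprd1b by 0.09 in cortex, and Cpsf3 by -0.08 and Cstf2t by -0.10 in hippocampus. Among 17 GCFC relatives, spliceosome disassembly factors and methyltransferase partners of Pax7 the medians were -0.003 and -0.03. The lowest p in cortex was that of Kmt2b, a histone methyltransferase (0.04), followed by Ash2l (-0.08) and Dhx8 (0.09). In hippocampus it was that of Rbbp5, a subunit of such methyltransferases (-0.09), followed by Kmt2b (0.05) and Gcfc2 (-0.09).

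Among 43 ribosome biogenesis genes the medians were 0.03 and -0.02. Fbl, the rRNA methyltransferase fibrillarin, differed by -0.15 in cortex and Rrp9 by 0.14. In hippocampus Nat10, an RNA acetyltransferase, differed by -0.12, Nle1 by -0.12 and Polr1b by -0.12. Among 46 genes of replication origins and forks the medians were 0.03 and -0.02. Pola2, a subunit of DNA polymerase alpha, differed by 0.19 ± 0.08 in cortex (adjusted p = 1.00), Mcm7 by 0.14 and Gins1 by -0.24, while in hippocampus Gmnn differed by 0.10, Prim1 by -0.18 and Mtbp by -0.10.

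**Figure D4:**
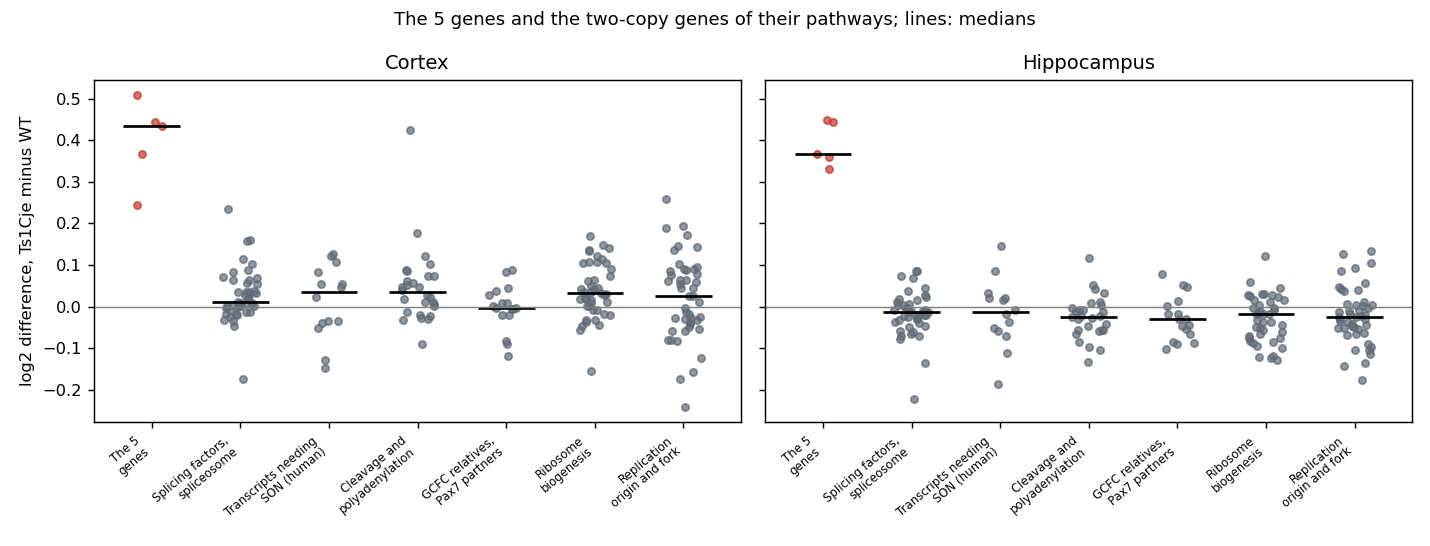
Log2 difference, Ts1Cje minus WT, of the 5 genes and of the genes of 6 pathway lists outside the segment, in cortex (left) and hippocampus (right), all animals; each point is a gene and lines are medians. The 5 genes lie at 0.24 or higher and the list medians between -0.03 and 0.03.

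No cell type marker gene was called in either region. In cortex the averages of 6 striatal neuron genes ran from 9.94 to 10.21 in Ts1Cje and from 9.44 to 10.19 in WT, and all 6 genes were on average higher in Ts1Cje. In hippocampus the averages of 6 astrocyte genes ran from 9.68 to 9.85 in Ts1Cje and from 9.86 to 9.90 in WT without overlap, and 0 of 6 were higher in Ts1Cje. There the averages of 5 choroid plexus genes ran from 8.79 to 9.47 in Ts1Cje and from 9.07 to 9.56 in WT, and 0 of 5 were higher in Ts1Cje. The 6 oligodendrocyte genes averaged 10.57 to 10.79 in Ts1Cje and 10.48 to 10.71 in WT in cortex, with 5 of 6 higher in Ts1Cje, and 10.10 to 10.36 and 10.10 to 10.21 in hippocampus, with 6 of 6 higher. The 7 hippocampal neuron genes averaged 8.82 to 9.13 in Ts1Cje and 8.93 to 9.22 in WT in hippocampus, with 1 of 7 higher in Ts1Cje. Microglia genes were higher in Ts1Cje for 5 of 6 in cortex and 1 of 6 in hippocampus. Of the 10 marker lists the genotypes' averages failed to overlap only for astrocytes in hippocampus, on all animals and without animals 60 and 64. Array signals give no 0, so no marker was at 0, and the part of these markers in the differences of the 5 genes was not tested.

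Within a group the 5 genes varied together only in part. Over the 18 arrays of the 9 animals other than 60 and 64, after subtracting each group's mean, Pearson's r was highest for Son and Paxbp1 (0.79, and 0.70 in cortex and 0.86 in hippocampus taken alone). For the other pairs the values in cortex and hippocampus taken alone follow in brackets, and several differed between regions. Pearson's r was 0.48 for Son and Scaf4 (0.02 and 0.72), 0.44 for Son and Donson (0.69 and 0.24) and 0.44 for Scaf4 and Paxbp1 (0.40 and 0.48). It was 0.38 for Paxbp1 and Donson (0.45 and 0.33), 0.35 for Son and Urb1 (0.10 and 0.52) and 0.35 for Paxbp1 and Urb1 (0.06 and 0.53). Lowest were Scaf4 and Donson at 0.16 (0.01 and 0.24), Urb1 and Donson at 0.07 (0.04 and 0.08) and Scaf4 and Urb1 at -0.12 (-0.47 and 0.02). Arrays come in pairs from 1 animal and share their processing, so these values are descriptions.

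The genes whose residual signals were most like each of the 5 were sought in the same way among 10118 genes brighter than the median gene. None of those found lies in the segment. For Son they were Cep70, a centrosome gene (r = 0.88), Gpatch8 (0.87) and Scaper (0.87). For Scaf4 they were Rbm5, an RNA-binding splicing regulator (0.86), Fbxl20 (0.78) and Galnt11 (0.75). For Paxbp1 they were the microRNA gene Mir341 (0.89), the glutamate receptor gene Gria4 (0.88) and Il1rapl1 (0.88). For Urb1 they were Slc25a1, the mitochondrial citrate carrier, which lies on chromosome 16 outside the segment (0.90), Srebf1, a regulator of lipid synthesis (0.85), and Cdc42bpb (0.84). For Donson they were Dnajc2, a ribosome-associated chaperone (0.80), Lrrcc1 (0.77) and Nbn, a DNA break repair gene (0.76). All are the highest of 10118 values for their gene, over 18 arrays that pair by animal. The level expected by chance was not computed, so these values are descriptions too.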

How the data were processed

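Total RNA of cortex and hippocampus was hybridised to Affymetrix mouse gene ST 1.0 arrays. The deposited values are log2 signals, processed by the authors with RMA (background correction, normalization and probe summary) per the submitters' processing notes. Not given in the sources used here are the RMA version, the probe definition, the genome build and whether the regions shared 1 normalization. Of 21225 features 20239 had 1 gene symbol and were tested, 986 had none and 0 had several. Symbols, gene order and promoters come from RefSeq GRCm38.p6; the ends of the segment were taken from general knowledge of the model. For Scaf4 the promoter table holds 2 entries and the first was used. For the arrays titled WT 60 the description gives 61; the title was used.

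Two-sided fits with 95% intervals were made by lmFit and eBayes of limma (version 3.58.1, under R 4.3.3). P values were adjusted by Benjamini-Hochberg across the 20239 genes and 0.05 was the threshold, with no filter on dim genes and all animals as the main setting. Genotypes were compared within each region and on animal means. The difference of genotype effects and the region difference used all 22 arrays, the second with array medians set to 0. The fit was tested on simulated data. The number of arrays limits the precision.

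The labels give the same animal number to a cortex and a hippocampus array, so the animals pair the arrays; deviations from the group means correlated within an animal at r = 0.05 to 0.76 (median 0.27), over 0.1 in 9 of 11 animals. Alternatives were a trended robust prior, array weights, quantile normalization, a filter on dim genes, testing every feature, centring, a covariate for animal numbers below 70 or above 80, 1 fit over all arrays with and without the replicate block, and leaving out animals.

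The members, lists and alternatives were chosen with earlier results of these data known. Named by rule were the 5 members, the nearest measured genes on each side, the 3 relatives outside the segment, up to 3 genes of each list with the lowest p in a comparison, and the 3 most alike genes per member.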

Additional observations from a re-analysis of the deposited data

Results flagged for a closer look

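In 4 of 20 gene and group combinations 1 array stood far from its group, where about 1 is expected by chance. An array was counted where its gap to the nearest array, over the range of the group, passed a critical value. That value was 0.71 for the WT groups and 0.625 for the Ts1Cje groups. WT animal 60 had the lowest cortex signal of Son (10.14, the others 10.51 to 10.56), of Paxbp1 (8.47, the others 8.94 to 9.13) and of Urb1 (8.06, the others 8.34 to 8.40). Ts1Cje animal 64 had the lowest cortex signal of Urb1 (8.28, the others 8.70 to 8.86). These are arrays with compressed signals. The 20 combinations share arrays and are not independent, and the values of animal 60 all come from 1 array. The 4 are therefore not separate events to be set against the 1 expected.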

How the results depend on the processing

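All 5 genes stayed higher in Ts1Cje in both regions and in the animal means under every alternative run, but calls moved. In cortex (0 of 5) the count was 5 with array weights, where 50 of all 20239 genes were called. It was 5 without animals 60 and 64 (32 of all genes) and 1 with quantile normalization (13 of all genes). It was 2 (Son and Donson) in 1 fit over all arrays, without and with a random replicate block for the animal (23 of all genes in each). Leaving out 1 animal gave 0, in fits that called 1 to 2 of all genes, or 1 (without 64, with 7 of all genes). In hippocampus (3) it was 1 with a covariate for low or high animal numbers (17 of all genes) and 4 with array weights (54 of all genes). It was 4 without the dimmest genes (26 of 13493 genes) and 2 with quantile normalization (Scaf4 lost, 25 of all genes). It was 2 in 1 fit over all arrays without and with the replicate block (Urb1 lost, 17 and 18 of all genes). Leaving out 1 animal gave 0, in fits that called 1 to 8 of all genes, or 4 (without 64, with 35 of all genes). In the animal means (1) it was 2 with the trended robust prior (20 of all genes) and 5 with array weights (68 of all genes). It was 3 with quantile normalization (30 of all genes) and 3 without the dimmest genes (27 of 13493 genes). It was 5 without animals 60 and 64 (52 of all genes). Leaving out 1 animal gave 0 to 4 (0 without any 1 of the 9 animals other than 60 and 64, 4 without 64). Those fits called 1 to 13 of all genes, and 33 without 64. Between regions (2, with 41.4% of all genes called) it was 4 without animals 60 and 64 (65.5%) and 4 with a random replicate block (54%). Leaving out 1 animal gave 1 to 3 (3 without 60 or 64), with 36.5% to 48.0% of all genes called. The count was 4 with array weights, 4 with a fixed replicate block, 5 on uncentred arrays and 3 with quantile normalization. For these the share of all genes is not given here, so they cannot be read as particular to the 5 genes. For the difference of genotype effects the count was 0 throughout. The causes were not tested.

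Genes called over the whole array were 1 in cortex and 23 in hippocampus, and 32 and 37 without animals 60 and 64. Reversed values were all uncalled: the Urb1 difference of genotype effects (-0.048 with array weights, -0.051 without animals 60 and 64, -0.082 to 0.048 on leaving out 1 animal), that of Son (-0.033 to 0.034), and the Paxbp1 region difference (0.031 with quantile normalization, -0.039 to 0.021 on leaving out 1 animal).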
